A study of Mus musculus with 29 samples.

Results

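Microglia are the resident macrophages of the retina, and 9 genes that mark them were followed here in whole retinas of 5 mouse strains at 2 ages. The genes are Csf1r, Cx3cr1, P2ry12, Trem2, Itgam, Tyrobp, Aif1, Cd68 and Slc11a1. They were chosen by name, and every probe set that the array annotation gives to one of them alone was taken, which makes 13 probe sets of 45101 and 9 genes of 18194. All 13 have a MAS5 signal, the linear value that the Affymetrix software computes for a probe set, and 7 of them, for 6 of the genes, are also in a second table of log2 values made by RMA. Aif1, Trem2 and Itgam have no probe set in the RMA table.

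Microglia come from the yolk sac, enter the retina during embryonic life and later settle in its synaptic layers, where they survey their surroundings and clear dying cells and synapses. Their survival depends on the receptor Csf1r, which binds the ligands Csf1 and Il34. Several of these genes are also used by other macrophages, so they mark the lineage better than the cell type alone.

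The retinas were those of RD7, NOD.NON-H2-nb1, CAST/EiJ, AKR/J and C57BL6/J mice, taken at P30.5, a month after birth, and at E18.5, shortly before birth. C57BL6/J is the common inbred strain that the others are set against, CAST/EiJ is wild-derived, NOD.NON-H2-nb1 is a congenic line on the NOD background, and RD7 mice carry a mutation in Nr2e3 that leads to retinal degeneration. No treatment was given. Each of the 29 arrays carried RNA pooled from several retinas, with 3 arrays in each of the 10 groups, or 2 where AKR/J was sampled at E18.5. The study made separate pools for each strain and age, so an array stands for its own pool. A p-value sets a difference against the spread between pools of the same group, estimated over all 10 groups. Nr2e3 was not analysed here, so the RD7 label was not checked against it.

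The median signal of an array lay between 91.9 and 135.3, and replicates correlated at 0.940 to 0.973 over all probe sets. The E18.5 pools differed in the tissue around the retina. The summed signal of a skeletal muscle list was 309 to 1127 on the P30.5 arrays, but above 10000 on 6 of the 14 E18.5 arrays: both AKR/J arrays, CAST/EiJ replicate 1, NOD.NON-H2-nb1 replicate 1 and RD7 replicates 2 and 3. On the C57BL6/J arrays at E18.5 it was 718 to 877. The comparisons that use them were repeated without them, and where the call of a gene's brightest probe set or a count was lost, the value stands beside it. This left 1 RD7 array at E18.5, taken to vary like the other groups, and no AKR/J array, so the AKR/J results at E18.5 have no such value. The repeat leaves out arrays by muscle genes only, so it cannot show what other tissue around the retina adds. At E18.5 the lowest sum of the pigment epithelium and melanocyte genes was 32279.7 in CAST/EiJ, and the highest in C57BL6/J was 4596. CAST/EiJ differs from the other strains in sequence, which can change how its RNA binds a probe, and this was not tested.

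Against the median of their own array, only Csf1r was high everywhere. Its 3 probe sets were above the median on 29 of 29 arrays. Slc11a1 was above it on 21 arrays, Tyrobp on 17, Cx3cr1 and P2ry12 on 9 each and Cd68 on 6, each by its brightest probe set. Aif1, Trem2 and Itgam were above it on 0 arrays, as were the second probe sets of Cx3cr1 and Trem2, so the values of these 3 genes carry little information. Their group means lay between 13.2 and 65.9 for Aif1, 26.4 and 69.8 for Trem2 and 7.98 and 31.8 for Itgam. Below, a gene is represented by its brightest probe set, fold changes are on the log2(signal + 16) scale, and a gene passed when its limma p-value, adjusted over all 45101 probe sets, was under 0.05.

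**Figure D1:**
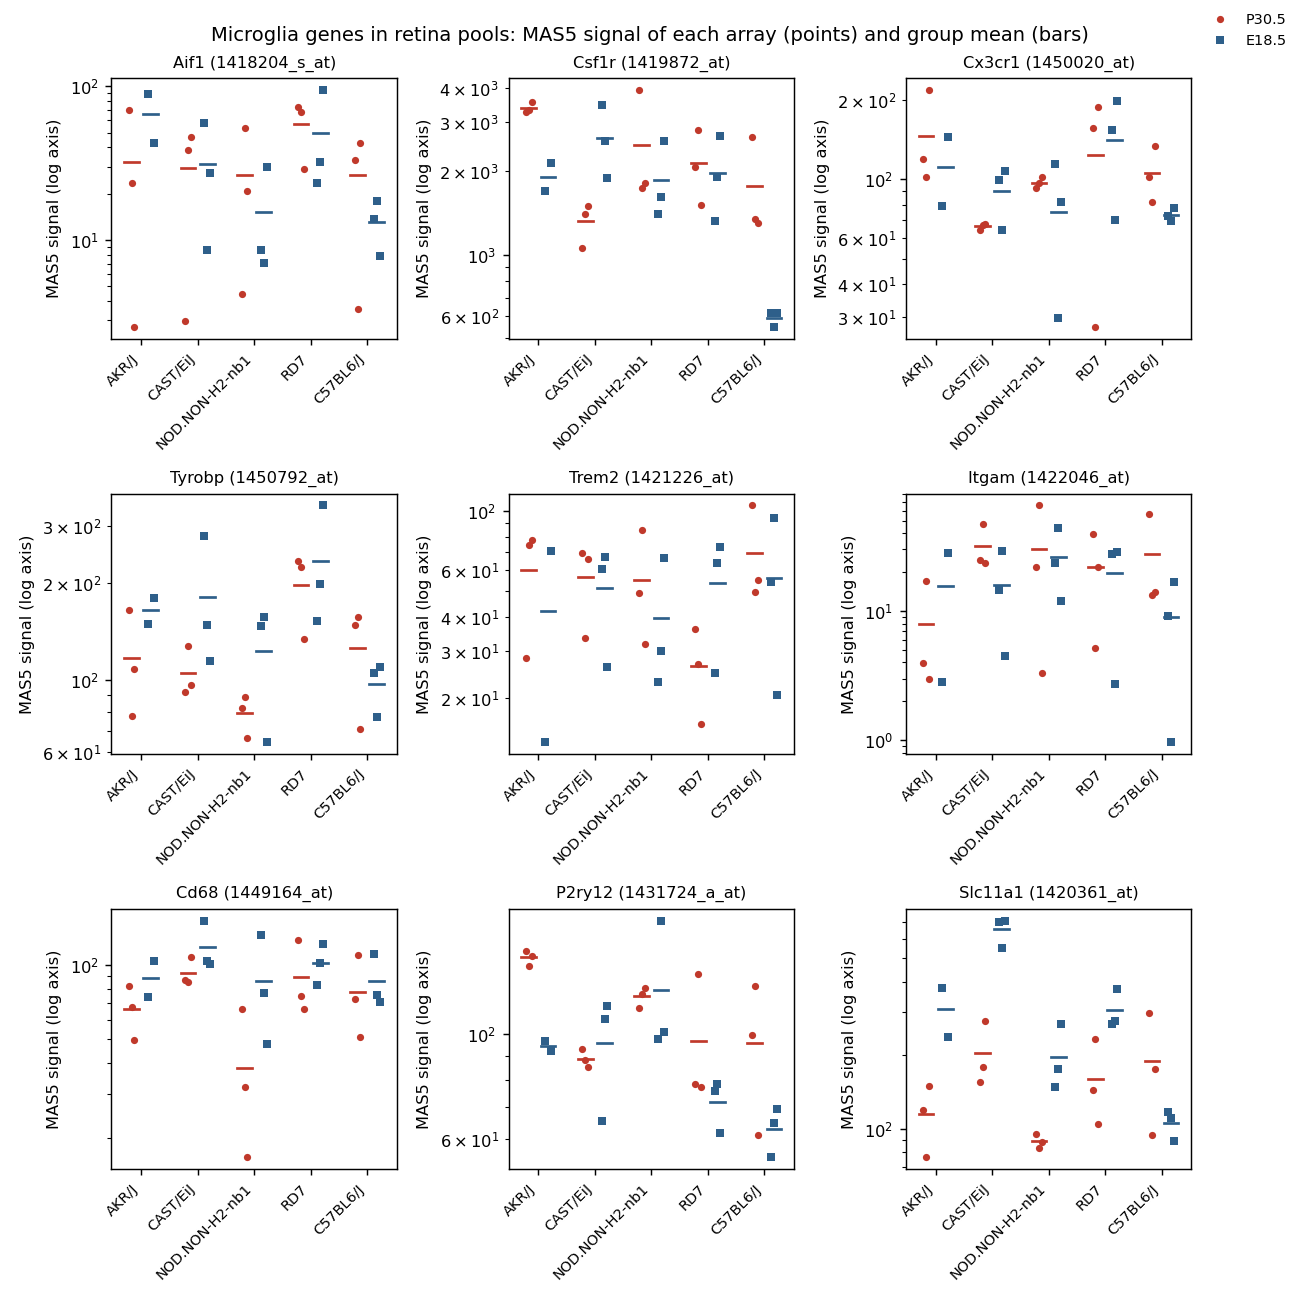
MAS5 signal (log axis) of the brightest probe set of each of the 9 microglia genes, with 1 point per array, bars at the group means, P30.5 in red and E18.5 in blue. Csf1r in C57BL6/J at E18.5 (547 to 616) lay below every other group, and Slc11a1 in CAST/EiJ at E18.5 (552 to 712) lay above every other group.

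Csf1r is the receptor tyrosine kinase that keeps microglia alive, and it lies at chr18:61105572-61131139 (GRCm38.p6, as are all positions below). It was higher than C57BL6/J at E18.5 in all 4 strains by its brightest probe set, 1419872_at. In CAST/EiJ at E18.5 this probe set read 3450.1, 2577 and 1887, in NOD.NON-H2-nb1 1395, 1608 and 2570.5, in RD7 1320.5, 1902 and 2671, in AKR/J 1692 and 2130.5, and in C57BL6/J 615, 547 and 616. Every E18.5 array of the 4 strains was above all 3 C57BL6/J arrays of that age. The fold change over C57BL6/J was 4.24 in CAST/EiJ (log2 2.08 ± 0.34 SE, adjusted p = 8.81e-05), 3.15 in AKR/J (1.65 ± 0.38, adjusted p = 0.00656), 3.13 in RD7 (1.65 ± 0.34, adjusted p = 0.0117) and lowest in NOD.NON-H2-nb1, at 2.98 (1.57 ± 0.34, adjusted p = 0.00843). These 4 comparisons share the same C57BL6/J arrays. Without the arrays high in muscle genes Csf1r still passed in CAST/EiJ (1.87, adjusted p = 0.00183) and NOD.NON-H2-nb1 (1.75, adjusted p = 0.0132), and it no longer passed in RD7 (1.14, adjusted p = 0.401).

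At P30.5 the Csf1r levels of the strains overlapped more. AKR/J read 3266, 3317 and 3546, RD7 2064, 2822 and 1514, NOD.NON-H2-nb1 3909.8, 1744 and 1813, CAST/EiJ 1059, 1401 and 1502, and C57BL6/J 2656, 1345 and 1297. The AKR/J arrays were all above those of C57BL6/J, but the difference of log2 1.01 (95% confidence interval 0.31 to 1.71) did not pass (adjusted p = 0.13), and no other strain passed either.

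With age, Csf1r went opposite ways in 2 strains. In C57BL6/J it averaged 1766 ± 771 at P30.5 and 593 ± 39.3 at E18.5 (SD, n = 3 each), 2.77-fold higher at P30.5 (log2 1.47 ± 0.34, adjusted p = 0.00166). In CAST/EiJ it averaged 1321 ± 232 at P30.5 and 2638 ± 783 at E18.5 (SD, n = 3 each), and fell by log2 0.96 ± 0.34 (adjusted p = 0.0369). Without the CAST/EiJ array high in muscle genes this fall was log2 -0.75 and no longer passed (adjusted p = 0.166), and leaving out each of the 6 arrays in turn lost the call 4 times. In the other 3 strains the change with age did not pass, with log2 0.82 in AKR/J, 0.13 in RD7 and 0.36 for NOD.NON-H2-nb1. The difference between CAST/EiJ and C57BL6/J was log2 2.43 ± 0.48 lower at P30.5 than at E18.5 in the test of that change itself (-2.43, adjusted p = 0.00780), and -2.22 without that array (adjusted p = 0.0328).

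The other 2 probe sets of Csf1r were dimmer and gave smaller changes. For 1419873_s_at the difference from C57BL6/J at E18.5 passed in CAST/EiJ (log2 1.40 ± 0.43, adjusted p = 0.0306) and did not pass in RD7 (1.20), AKR/J (0.55) or NOD.NON-H2-nb1 (0.93). For 1423593_a_at the same differences were 0.76, 0.79, 0.39 and 0.55, none of which passed. All of these had the sign of the bright probe set. In the RMA table, which leaves out 1419872_at, both dimmer probe sets passed in CAST/EiJ at E18.5 (log2 1.31, adjusted p = 0.00324, and 0.59, adjusted p = 0.0322). The change with age of Csf1r passed in no strain there, so the rise in C57BL6/J and the fall in CAST/EiJ rest on the bright probe set.

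**Figure D2:**
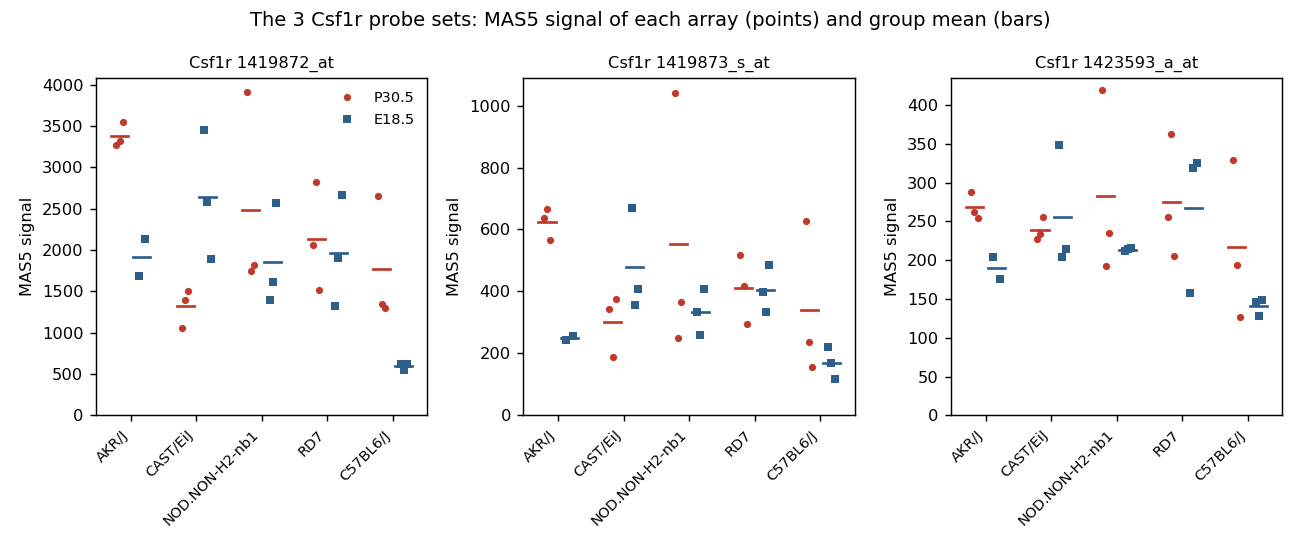
MAS5 signal of the 3 Csf1r probe sets, with 1 point per array, bars at the group means, P30.5 in red and E18.5 in blue. The C57BL6/J mean at E18.5 was the lowest of the 10 groups for each probe set, at 593, 169.6 and 141, and its arrays lay below all others only for 1419872_at.

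Cx3cr1 (chr9:120048683-120068296) is the receptor for fractalkine, a neuronal ligand. It differed little between groups. Its means lay between 66.4 in CAST/EiJ at P30.5, where the arrays read 64.4, 67.3 and 67.6, and 146 in AKR/J at P30.5, where they read 119, 102 and 217. Neighbouring groups in the order of means overlapped, except that the C57BL6/J arrays at E18.5 (69.5 to 77.8) lay above the CAST/EiJ arrays at P30.5. It passed in no comparison.

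P2ry12 (chr3:59216271-59262985) is the ADP receptor that draws microglial processes to damaged cells and is among the genes that set microglia apart from other macrophages. AKR/J at P30.5 read 150.1, 139.1 and 146.5 and NOD.NON-H2-nb1 114, 122 and 125, against 99.7, 127 and 61.2 in C57BL6/J at that age. At E18.5 NOD.NON-H2-nb1 read 97.4, 174 and 101, against 54.8, 64.9 and 69.4 in C57BL6/J. Neither the E18.5 arrays of NOD.NON-H2-nb1 nor the P30.5 arrays of AKR/J overlapped those of C57BL6/J. In the MAS5 signals none of these passed (log2 0.57, adjusted p = 0.271, 0.33, adjusted p = 0.699, and 0.79, adjusted p = 0.0902), but in the RMA values all 3 did, at log2 0.77 (adjusted p = 0.00278), 0.90 (adjusted p = 0.000507) and 0.85 (adjusted p = 0.000973). P2ry12 passed as higher in the RMA values of CAST/EiJ at E18.5 as well (0.50, adjusted p = 0.0210).

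Trem2 (chr17:48346401-48352276) is a lipid-sensing receptor that signals through Tyrobp, and Itgam (chr7:128062640-128118491) is the integrin chain CD11b, which pairs with Itgb2 in the receptor for bound complement. Neither passed in any comparison. In RD7 at P30.5 Trem2 read 36.3, 26.8 and 15.97, against 105, 49.8 and 55.1 in C57BL6/J, a difference of log2 -0.99 (95% confidence interval -1.95 to -0.04, adjusted p = 0.642). The arrays of the 2 groups did not overlap, though each lay under its own array's median. The second Trem2 probe set, 1421792_s_at, had the other sign in this comparison (log2 0.49, adjusted p = 0.838), with 83.9, 10.5 and 9.0 in RD7, against 12.6, 14.7 and 10.9 in C57BL6/J.

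Tyrobp (chr7:30413782-30417582) is the adaptor that passes on the signal of Trem2 and related receptors. RD7 had the highest means at both ages. The arrays read 235, 224 and 134 in RD7 at P30.5, against 148, 157 and 70.9 in C57BL6/J. At E18.5 they read 153, 199 and 347 in RD7, 279, 148 and 115 in CAST/EiJ and 149.7 and 180.0 in AKR/J, against 106, 77.1 and 110.1 in C57BL6/J. At E18.5 no array of these 3 strains overlapped C57BL6/J, yet the differences of log2 1.07 in RD7 (adjusted p = 0.140), 0.72 in CAST/EiJ and 0.68 in AKR/J did not pass. By RMA they passed in RD7 (1.05, adjusted p = 0.0152) and CAST/EiJ (0.89, adjusted p = 0.0115), and neither passed without the arrays high in muscle genes (0.64, adjusted p = 0.357, and 0.64, adjusted p = 0.0685).

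Aif1 (chr17:35170986-35176083) encodes the calcium-binding protein Iba1, the usual antigen for staining microglia, and it passed in no comparison. Cd68 (chr11:69664213-69666170) is a glycoprotein of the lysosomal membrane. In NOD.NON-H2-nb1 it read 66.5, 32.1 and 16.7 at P30.5, against 132.5, 77.3 and 47.9 at E18.5. It fell by log2 0.92 ± 0.32 with age (adjusted p = 0.0374), although these arrays overlapped. Without the NOD.NON-H2-nb1 array high in muscle genes the change was -0.61 (adjusted p = 0.250), and in the RMA values the fall passed only in RD7 (-0.55, adjusted p = 0.0312), and not there without such arrays (-0.29, adjusted p = 0.423). Leaving out each of the 6 NOD.NON-H2-nb1 arrays in turn lost the call 4 times. Group means of Cd68 ran between 38.4 and 118, and neighbouring groups overlapped throughout. By RMA it passed as higher than C57BL6/J in CAST/EiJ at E18.5, with group means of 5.90 against 5.32. Its value there without the CAST/EiJ array high in muscle genes is not given here.

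Slc11a1 (chr1:74375014-74386057) is the metal ion transporter of the phagosome membrane, known for its part in resistance to bacteria that live inside macrophages. Its difference between CAST/EiJ and C57BL6/J at E18.5 was the largest strain difference of the 9 genes in the MAS5 signals. At E18.5 CAST/EiJ read 702.5, 552 and 712, AKR/J 378 and 238, RD7 268, 275 and 374, and NOD.NON-H2-nb1 148, 176 and 268, against 117, 110.2 and 88.9 in C57BL6/J. Each strain's E18.5 arrays were above those of C57BL6/J, and the CAST/EiJ arrays were above all others. The fold change over C57BL6/J was 5.52 in CAST/EiJ (log2 2.47 ± 0.33, adjusted p = 6.8e-06), 2.63 in RD7 (1.40 ± 0.33, adjusted p = 0.0274) and 2.62 in AKR/J (1.39 ± 0.37, adjusted p = 0.0189). In NOD.NON-H2-nb1 the difference of 0.78 (95% confidence interval 0.10 to 1.46) did not pass (adjusted p = 0.364).

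The AKR/J and RD7 results for Slc11a1 were close to the threshold. With the date in the sample labels as a block they were log2 1.29 (adjusted p = 0.0685) and 1.36 (adjusted p = 0.0924). The labels do not say what this date refers to, and the groups share the dates. Without the 2 RD7 arrays high in muscle genes the RD7 difference was 1.23 (adjusted p = 0.372), whereas the CAST/EiJ difference without its array was 2.41 (adjusted p = 0.000268). In the RMA values Slc11a1 passed in CAST/EiJ (2.99, adjusted p = 1.19e-08), AKR/J (1.75, adjusted p = 0.000294) and RD7 (1.60, adjusted p = 0.0015).

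At P30.5 Slc11a1 read 95.5, 83.6 and 88.5 in NOD.NON-H2-nb1, 144, 233 and 105 in RD7, 156, 179 and 277 in CAST/EiJ, 119, 76.3 and 149.7 in AKR/J, and 298, 93.9 and 175 in C57BL6/J. It was lower than at E18.5 in 4 strains, with no overlap between the ages. The change was log2 -1.64 ± 0.33 in CAST/EiJ (adjusted p = 0.000445), -1.31 ± 0.37 in AKR/J (adjusted p = 0.00943), -0.98 ± 0.33 in NOD.NON-H2-nb1 (adjusted p = 0.0278) and -0.92 ± 0.33 in RD7 (adjusted p = 0.0380). The RMA values gave the same 4 calls, between -1.92 and -0.93. Leaving out each array in turn lost the call in 4 of 6 fits in RD7 and NOD.NON-H2-nb1 each, 2 of 5 in AKR/J and 0 of 6 in CAST/EiJ. Without the 2 arrays high in muscle genes the change in RD7 was -0.75 (adjusted p = 0.343), and by RMA -0.93 (adjusted p = 0.0775). In C57BL6/J the sign was the opposite, at 0.63 ± 0.33, and did not pass (adjusted p = 0.169).

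The difference of Slc11a1 from C57BL6/J was therefore less positive at P30.5 than at E18.5 in each strain. At P30.5 it was log2 0.19 in CAST/EiJ and had turned negative in RD7 (-0.15), AKR/J (-0.56) and NOD.NON-H2-nb1 (-0.84), and none of these passed. The test of that change passed in CAST/EiJ (log2 -2.27 ± 0.46, adjusted p = 0.0103) and not in AKR/J (-1.95, adjusted p = 0.0559), NOD.NON-H2-nb1 (-1.62, adjusted p = 0.303) or RD7 (-1.55, adjusted p = 0.189). By RMA it passed in all 4, and without the arrays high in muscle genes in NOD.NON-H2-nb1 and CAST/EiJ but not in RD7 (-1.54, adjusted p = 0.150). Fold changes on the log2(signal + 16) scale understate the change of genes with low signals.

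**Figure D3:**
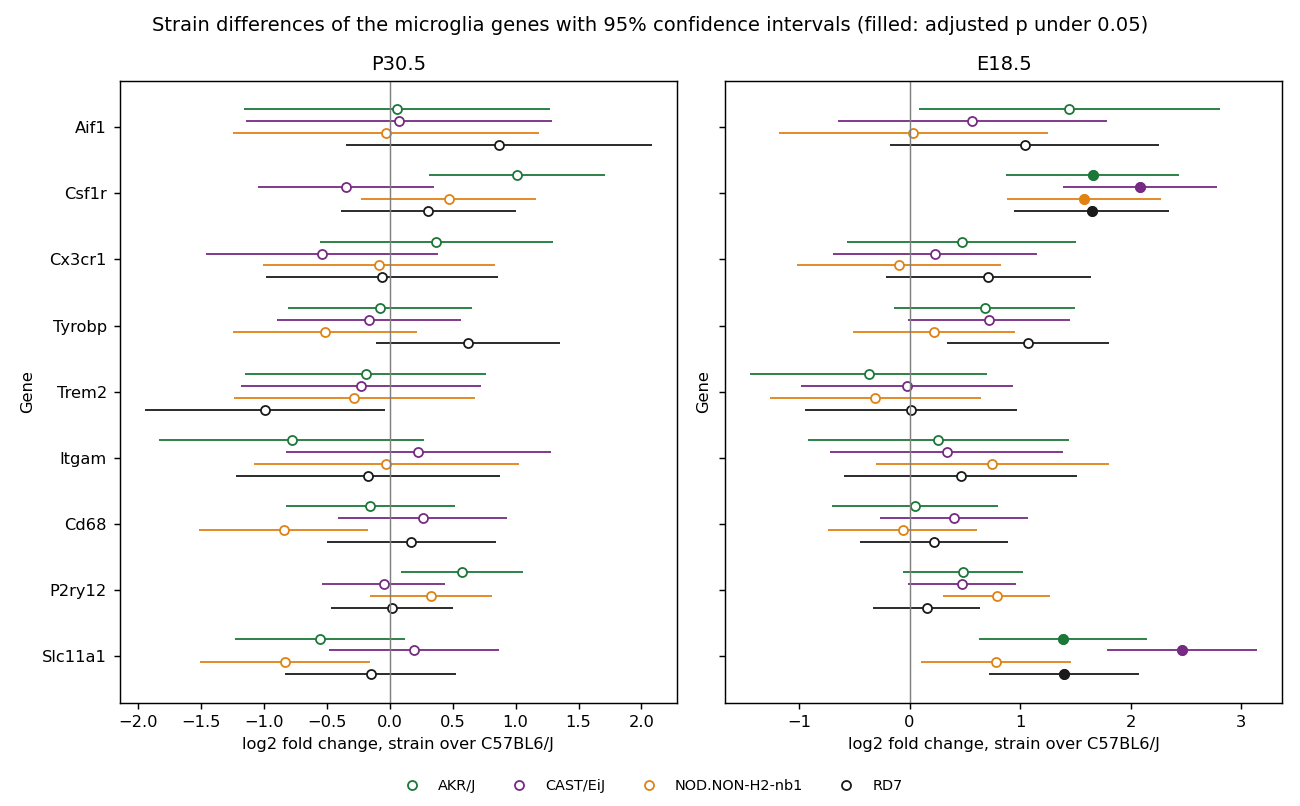
Difference of each strain from C57BL6/J for the 9 microglia genes at P30.5 (left) and E18.5 (right), as log2 fold change of the MAS5 signal with its 95% confidence interval, filled where the adjusted p was under 0.05. At E18.5 Csf1r is filled in 4 strains and Slc11a1 in 3, and at P30.5 no gene is filled.

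As a group, 2 of the 9 genes passed at E18.5 in CAST/EiJ, AKR/J and RD7 each and 1 in NOD.NON-H2-nb1, all higher than C57BL6/J. Over all probe sets 14.7%, 7.55%, 1.8% and 2.31% passed in these comparisons, so the count in CAST/EiJ was near the background and the others were above it by about 1 to 2 genes. Without the arrays high in muscle genes 2 of 9 passed in CAST/EiJ, 0 in RD7 and 1 in NOD.NON-H2-nb1 (11.3%, 0.233% and 2.02% of all). The median log2 difference over the 9 genes was 0.47 in CAST/EiJ, 0.49 in AKR/J, 0.71 in RD7 and 0.22 in NOD.NON-H2-nb1, where the medians over all probe sets were between -0.06 and 0.02. In RD7 all 9 differences were positive. At P30.5, 0 of 9 passed in CAST/EiJ, AKR/J, RD7 and NOD.NON-H2-nb1, against 12.9%, 2.88%, 0.439% and 2.46% of all probe sets, and the medians were between -0.09 and 0.02. The number of microglia, the RNA per cell and RNA from tissue around the retina cannot be told apart in these pools.

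With age, 2 of 9 genes passed in NOD.NON-H2-nb1 and CAST/EiJ each and 1 in AKR/J, RD7 and C57BL6/J each, where 26.3%, 26.2%, 24.6%, 28.7% and 27.7% of all probe sets passed. These counts were near the background in each strain. In the tests of whether a strain's difference changed with age, 2 of 9 passed in CAST/EiJ and 0 of 9 in the other 3 strains, against 1.39% of all probe sets in CAST/EiJ and 0.962%, 0.386% and 0.118% in AKR/J, RD7 and NOD.NON-H2-nb1.

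The RMA values hold 6 of the genes and called more of the table. At E18.5, 5 of the 6 genes passed in CAST/EiJ, 1 in AKR/J, 2 in RD7 and 1 in NOD.NON-H2-nb1, all higher, beside 27.1%, 17.0%, 7.15% and 5.04% of all probe sets in that table. Without the arrays high in muscle genes 3 passed in CAST/EiJ, 1 in RD7 and 2 in NOD.NON-H2-nb1 (22.7%, 2.92% and 5.05% of all). At P30.5, 1 passed in AKR/J and NOD.NON-H2-nb1 each (6.3% and 6.11% of all) and 0 in CAST/EiJ and RD7 (24.8% and 0.998%). With age 2 passed in RD7, 1 in NOD.NON-H2-nb1, CAST/EiJ and AKR/J each and 0 in C57BL6/J, where 47.4%, 43.3%, 42.3%, 41.2% and 45.3% of all did. The change of the strain difference with age passed for Slc11a1 in each strain and for no other gene, against 0.778% of all in NOD.NON-H2-nb1, 4.47% in AKR/J, 1.34% in RD7 and 5.68% in CAST/EiJ.

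The ligands and partners of these receptors are a list of 8 genes. Cx3cl1, which encodes fractalkine, was higher at P30.5 in every strain, by log2 2.98 in CAST/EiJ, 2.71 in AKR/J, 2.80 in NOD.NON-H2-nb1, 2.07 in RD7 and 2.43 in C57BL6/J (adjusted p 9.35e-08 to 1.87e-05). In C57BL6/J it averaged 670.2 ± 221 at P30.5 and 107 ± 12.0 at E18.5 (SD, n = 3 each). Its receptor Cx3cr1 passed in none of these comparisons, with a change of log2 0.43 in C57BL6/J. Apoe, a lipid carrier that binds Trem2, also rose with age in every strain, by log2 1.88 to 3.01, and was higher than C57BL6/J at E18.5 in CAST/EiJ (1.24, adjusted p = 0.0175) and RD7 (1.37, adjusted p = 0.0460, and 1.02, adjusted p = 0.476, without the arrays high in muscle genes). Itgb2, the partner of Itgam, was raised over C57BL6/J in CAST/EiJ at E18.5 (1.22, adjusted p = 0.0338, and 1.23, adjusted p = 0.0728, without that strain's such array). Csf1, Il34, Hcst, Entpd1 and Adora3 passed in no strain or age comparison.

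Other genes of microglia and macrophages, 22 of 24 listed, were measured too. At E18.5, 4 were higher in AKR/J than in C57BL6/J, among them Lcp1 (log2 1.96, adjusted p = 0.0129) and Tmem119 (2.58, adjusted p = 0.0349). In RD7 3 were higher, namely Laptm5 (1.48, adjusted p = 0.00611), Ly86 (1.18, adjusted p = 0.0151) and the complement gene C1qb (1.11, adjusted p = 0.0373), and 0 passed there without the arrays high in muscle genes, with 18 of 22 still positive. None passed in CAST/EiJ or NOD.NON-H2-nb1, where 16 of 22 differences were positive in each. The list's median was 0.86 in RD7 with 20 of 22 positive, 0.24 in NOD.NON-H2-nb1, 0.31 in CAST/EiJ and 0.47 in AKR/J. The RMA table holds 18 of these genes, of which 11 passed in RD7 and 5 in AKR/J and CAST/EiJ each, all higher, beside 7.15%, 17.0% and 27.1% of all its probe sets, so the count in CAST/EiJ was near the background. Without the arrays high in muscle genes 2 passed in RD7 (2.92% of all) and 3 in CAST/EiJ (22.7%).

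At P30.5 the same list was lower in CAST/EiJ. There 7 of 22 genes passed and all were lower, with a list median of log2 -0.50, beside 12.9% of all probe sets that passed. The lysosomal protease Ctss averaged 582 ± 52.0 in CAST/EiJ and 1432 ± 37.9 in C57BL6/J (SD, n = 3 each), a change of -1.28 ± 0.18 (adjusted p = 1.7e-05). Ly86 (-1.20, adjusted p = 0.00168), the pore-forming protein gene Mpeg1 (-2.55, adjusted p = 0.00237) and C1qb (-1.19, adjusted p = 0.00419) were lower too, as were Gpr34, Laptm5 and C1qa. The RMA table called 3 of its 18 as lower, where 24.8% of all its probe sets passed. None of the 9 marker genes passed in that comparison. In NOD.NON-H2-nb1 only Mpeg1 passed (-2.65, adjusted p = 0.00666), and in AKR/J and RD7 0 of 22 did. Of all probe sets 2.46%, 2.88% and 0.439% passed in these strains.

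Ctss was higher at P30.5 than at E18.5 in AKR/J, NOD.NON-H2-nb1, RD7 and C57BL6/J, by log2 0.82 to 1.14, while Slc11a1 was lower at P30.5 in the first 3 of these strains. Coro1a, an actin-binding protein of blood-derived cells, fell with age in all 5 strains. Of the transcription factors, Mef2c, which neurons and muscle also use, rose with age in CAST/EiJ, NOD.NON-H2-nb1, RD7 and C57BL6/J (log2 2.58 to 5.96). Runx1 rose in RD7 (1.44, adjusted p = 0.0277, and 1.38, adjusted p = 0.225, without the arrays high in muscle genes) and C57BL6/J (1.52, adjusted p = 0.0210).

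Some genes linked to activated microglia and to macrophages of tissue borders were higher than C57BL6/J at E18.5 as well. Of 12 activation genes, Gpnmb, also made by pigment cells, was higher in AKR/J (log2 3.12, adjusted p = 0.00368), RD7 (2.88, adjusted p = 0.0118) and CAST/EiJ (2.51, adjusted p = 0.00427). Lgals3 was higher in RD7 (3.42, adjusted p = 0.0117) and CAST/EiJ (2.31, adjusted p = 0.0262). Of 8 border macrophage genes, 4 passed in AKR/J, 3 in CAST/EiJ, 4 in RD7 and 1 in NOD.NON-H2-nb1, all higher. Beside these counts, 7.55%, 14.7%, 1.8% and 2.31% of all probe sets passed. Lyve1, which lymphatic vessels also make, was higher in AKR/J (2.92, adjusted p = 4.4e-05), CAST/EiJ (2.53, adjusted p = 1.3e-05) and RD7 (2.34, adjusted p = 0.00138), and F13a1 in AKR/J, RD7 and NOD.NON-H2-nb1 (3.71, 3.20 and 2.38). Without the arrays high in muscle genes Lyve1 alone of the border genes passed, in CAST/EiJ (2.24, adjusted p = 7.7e-06) and RD7 (1.98, adjusted p = 0.0183), and Gpnmb passed in CAST/EiJ (2.35, adjusted p = 0.0392) but not in RD7 (2.54, adjusted p = 0.287), and Lgals3 in neither.

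Markers of other cells moved with these differences. The summed signal of the 8 border macrophage genes at E18.5 was 732 to 1944 in NOD.NON-H2-nb1, 2968 to 3854 in AKR/J, 541 to 4189.5 in CAST/EiJ, 1454 to 7035 in RD7 and 250.4 to 933 in C57BL6/J. That of 8 genes of the pigment epithelium and melanocytes was 7162 to 27592 in NOD.NON-H2-nb1, 27065 to 39124 in AKR/J, 32279.7 to 42220.1 in CAST/EiJ, 25938 to 45685 in RD7 and 2135 to 4596 in C57BL6/J. Of these 8 genes 7 were higher than C57BL6/J in AKR/J, CAST/EiJ and RD7 each, and 0 passed in NOD.NON-H2-nb1, where all 8 were positive. The shares of all probe sets that passed were 7.55%, 14.7%, 1.8% and 2.31% in these strains. They also stand beside the counts of the lists that follow. Without the arrays high in muscle genes 7 passed in CAST/EiJ, 0 in RD7 and 2 in NOD.NON-H2-nb1. For mesenchyme around the eye the summed signal of 9 genes was 1064 to 21171 in NOD.NON-H2-nb1, 4910.4 to 81136 in RD7, 5189 to 59775 in CAST/EiJ, 74769 to 83557 in AKR/J and 671 to 5556 in C57BL6/J, with 1, 3, 4 and 9 genes higher than C57BL6/J. That of 4 red blood cell genes was 265 to 2339 in NOD.NON-H2-nb1, 396 to 1258 in RD7, 324 to 2447 in CAST/EiJ, 2594 to 2735 in AKR/J and 122 to 205 in C57BL6/J, with 0, 0, 1 and 3 genes higher. Retinal neuron genes went the other way, with sums over 7 genes of 15957 to 18118 in NOD.NON-H2-nb1, 10484 to 16814 in RD7, 12485 to 14126 in CAST/EiJ, 10482 to 13161 in AKR/J and 18981 to 22665 in C57BL6/J, and 0, 1, 3 and 2 genes lower. The counts for mesenchyme, red blood cells and retinal neurons without the arrays high in muscle genes are not given here. The lowest mesenchyme sums in RD7, CAST/EiJ and NOD.NON-H2-nb1 lay inside the C57BL6/J range of that age. At P30.5 the ranges of the pigment sum overlapped C57BL6/J (26389 to 54363) in all strains. Lymphocyte genes were low, with sums of 31 to 233 over 6 genes on all arrays and 0 passing in any comparison. The part of these other cells in the results for Csf1r and Slc11a1 was not tested.

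Across arrays, the 9 genes did not follow 1 common pattern. Over the 29 arrays Csf1r correlated with the mean of the pigment list at r = 0.79. Its r was 0.42 with the other microglia genes, 0.71 with the activation genes and 0.51 with the microglia transcription factors. Over the 14 E18.5 arrays these values were 0.87, 0.54, 0.79 and 0.65 in that order, and that with the retinal neuron list was -0.83. Slc11a1 correlated with the pigment list at 0.29 over all arrays and 0.89 over the E18.5 arrays, and with the lists for mesenchyme around the eye and for red blood cells at 0.66 each over all arrays and 0.57 each over the E18.5 arrays. Tyrobp and Aif1 were the genes most like the other microglia genes over all arrays, at 0.79 and 0.63, though Aif1 was below every array's median. P2ry12 (-0.21), Trem2 (-0.19) and Itgam (-0.04) were not like them. Over the E18.5 arrays Tyrobp had 0.87 with the other microglia genes and 0.69 with the mesenchyme list, and Aif1 0.76 and 0.81. These are descriptions over arrays that share groups, dates and the makeup of their pools.

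**Figure D4:**
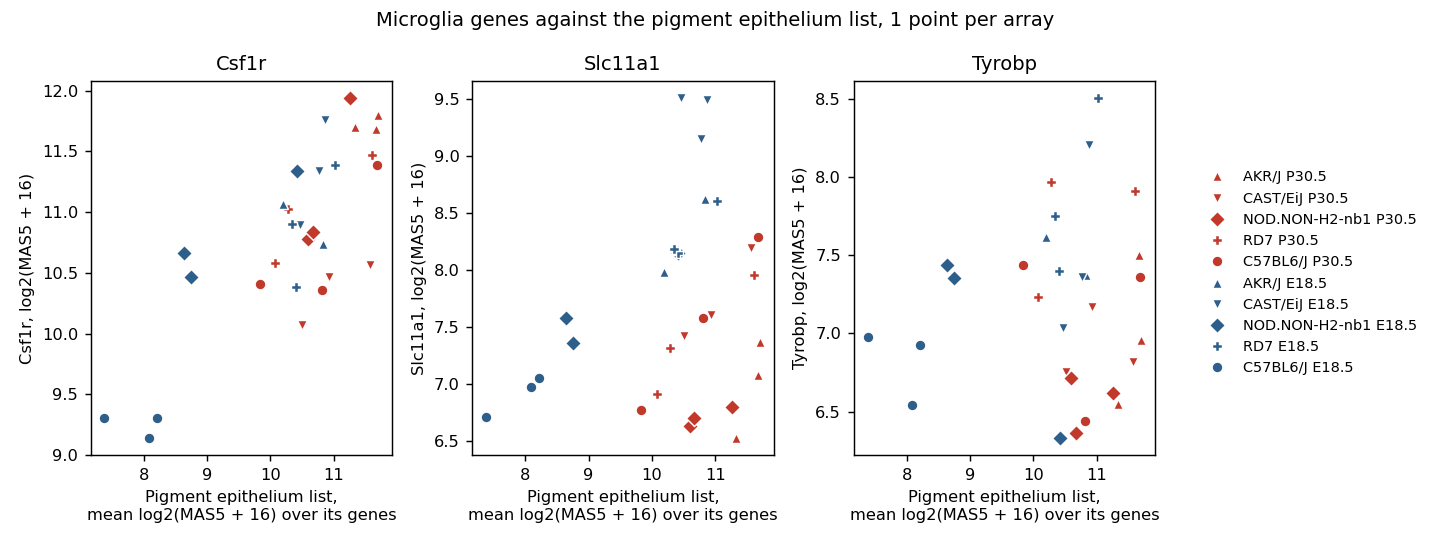
Log2(MAS5 signal + 16) of Csf1r, Slc11a1 and Tyrobp against the mean of the pigment epithelium and melanocyte list, with 1 point per array, P30.5 in red and E18.5 in blue. The 3 C57BL6/J arrays at E18.5 lie at the low end of the list and of Csf1r, and r over the 29 arrays was 0.79 for Csf1r, 0.29 for Slc11a1 and 0.12 for Tyrobp.

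Among themselves, Tyrobp and Cd68 were the most alike (r = 0.67 over the 29 arrays and 0.64 for deviations from the group means). Csf1r and P2ry12 correlated at 0.51 over the arrays but at -0.09 within groups, and Csf1r and Slc11a1 at 0.59 within groups. The lowest value over the arrays was -0.36, between Cd68 and P2ry12, and the lowest within groups was -0.68, between Cx3cr1 and P2ry12. Of all other genes, the one most like Csf1r was Clic6, a chloride channel gene, at 0.91, followed by Calml4, Pltp, Slc4a5 and Vasn at 0.89 each. For Slc11a1 they were Manba (0.88), Foxp1 (0.86), Klk4 (0.85), Pmel (0.84) and Cpz (0.83), and for Tyrobp Emp2 (0.78), Enpp3 and Lgals9 (0.77 each). The 10 genes most like the mean of the 6 brighter members were Fam174b, Rhoj, Loxl1, Myo1e, Cd151, Rasgrp3, Ctsd, Aga, Cldn1 and Ogn, at 0.79 to 0.85.

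**Figure D5:**
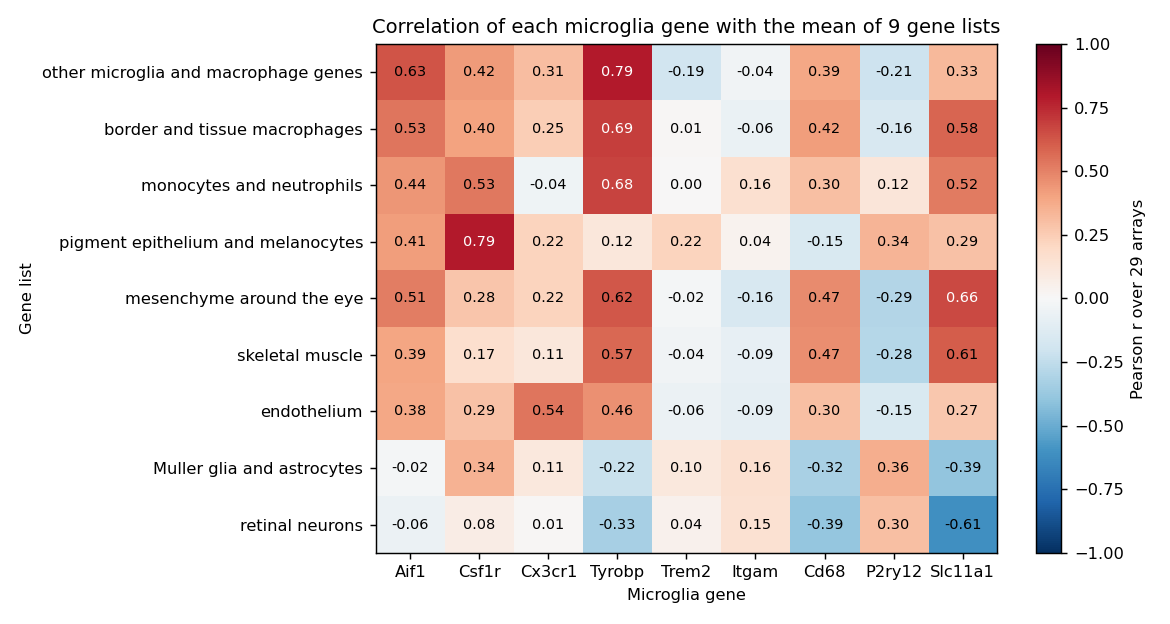
Pearson r over the 29 arrays between each microglia gene (columns) and the mean log2(MAS5 signal + 16) of 9 gene lists (rows), from blue (-1) to red (1). The highest values are 0.79 for Tyrobp with the other microglia genes and 0.79 for Csf1r with the pigment list, and the lowest is -0.61 for Slc11a1 with retinal neurons. The activation and transcription factor lists are among those not drawn.

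Promoter sequence was described next, for Slc11a1 and the other genes that have a window. Macrophage genes are typically bound by PU.1, the product of Spi1, at purine-rich sites with the core GAGGAA. RefSeq promoter sequence (GRCm38.p6, the 250 bases before the start) was at hand for 7 of the 9 genes, with no window used for Csf1r or Tyrobp. The start is that of 1 transcript. In Slc11a1 and Aif1 it lies inside the span of the gene given above, so the part of the window that holds the core is within the gene. The core, searched on both strands as GAGGAA or TTCCTC, was in 5 of these 7 windows and in 23.3% of all 32851 windows, while the longer GAGGAAGT was in 0 of 7 and in 2.44% of all. Capitals mark the core in the stretches below, read along the strand of each gene, with Slc11a1 and Cd68 first, since both passed in comparisons of the ages, and the other 3 for comparison.
Slc11a1, chr1:74375041-74375066, plus strand: gtatccaggaGAGGAAcgaaggtcaa
Cd68, chr11:69666380-69666405, minus strand: tcttaccaatGAGGAAagggcttccc
Itgam, chr7:128062546-128062571, plus strand: ttttctcccgGAGGAAggctacagag
Trem2, chr17:48346351-48346376, plus strand: cctcctttccTTCCTCcctccctcac
Aif1, chr17:35176053-35176069, minus strand: aggcacccagTTCCTCc
The core lay 152 bases before the start of the window's transcript in Slc11a1, 225 in Cd68, 84 in Itgam, 40 in Trem2 and 7 in Aif1, with a second match 15 bases before the start in Itgam. Cx3cr1 and P2ry12 had none in their windows. Of other motifs searched on both strands, 2 were each in 1 window, CACGTG in P2ry12 (6.02% of all windows) and TGACTCA in Cd68 (4.46%). Genes with the core included those that passed and those that did not, and a match is not evidence of a site in use.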

How the data were processed

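The authors deposited MAS5 signals, an intensity on a linear scale, for 45101 probe sets, and log2 values made by RMA for 25444 of them (56.4%). The rule behind the smaller table and the scaling of the signals are not given in the sources used here. The array model named by the study differs from the one whose probe sets the files list. Of the probe sets 34958 have 1 gene symbol, 932 have several and 9211 have none listed, and only the first kind was named. The signals were used as log2(signal + 16) in limma (version 3.58.1, R 4.3.3), fitting 1 mean for each of 10 groups over the 29 arrays (19 residual degrees of freedom), and 17 contrasts were adjusted by the Benjamini-Hochberg method over all probe sets. Groups came from the sample labels.

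The named genes are the 9 members, up to 4 genes of each other list (14 lists) with the smallest adjusted p in a contrast, and the genes most like the members. Other genes named from a list were added after their values were seen. The members and lists were chosen with earlier results of these data known. Arrays of 1 date deviated together (mean r = 0.0997 over 120 pairs of groups' arrays, against -0.0463 over 258 other pairs), so the date from the labels was tried as a block. No column was unmapped. The fit was tested on simulated data.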

Additional observations from a re-analysis of the deposited data

Results flagged for a closer look

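In CAST/EiJ the difference of Csf1r from C57BL6/J changed with age by log2 -2.43 (limma, adjusted p = 0.00780). It was -0.35 at P30.5 and 2.08 at E18.5. For Slc11a1 the change was -2.27 (adjusted p = 0.0103), with differences of 0.19 at P30.5 and 2.47 at E18.5. Both were picked out because the effect of the strain differed between the ages in the test of that difference itself. Leaving out each array in turn gave values between -2.65 and -2.10 for Csf1r and between -2.66 and -1.90 for Slc11a1, and both passed each time. In the RMA values Slc11a1 gave -2.53 (adjusted p = 0.000258) and Csf1r, by a dimmer probe set, -1.43 (adjusted p = 0.0637). Within label dates the Slc11a1 difference between CAST/EiJ and C57BL6/J at E18.5 was 2.53 and 2.43, and that of Csf1r 1.76 and 2.46.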

How the results depend on the processing

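Counts below are of the 9 genes that passed, with the count in the report after "against". In the RMA values the counts for age were 1 against 2 in NOD.NON-H2-nb1 and CAST/EiJ each, 2 against 1 in RD7 and 0 against 1 in C57BL6/J. At E18.5 they were 5 against 2 in CAST/EiJ and 1 against 2 in AKR/J, and at P30.5 1 against 0 in AKR/J and NOD.NON-H2-nb1 each. For the change of the strain difference with age they were 1 against 2 in CAST/EiJ and 1 against 0 in AKR/J, RD7 and NOD.NON-H2-nb1 each. The RMA table lacks 3 of the genes and the brightest Csf1r probe set. With the median over a gene's probe sets the counts were 1 against 2 for age and for its change in CAST/EiJ, 0 against 1 for age in C57BL6/J, 1 against 2 at E18.5 in AKR/J and RD7 each and 0 against 1 in NOD.NON-H2-nb1. With only the groups compared in the fit they were 2 against 1 for age in AKR/J, 1 against 2 in NOD.NON-H2-nb1, 0 against 1 in RD7, 0 against 2 at E18.5 in RD7 and 1 against 2 for the change in CAST/EiJ. With the label date fitted as a replicate block they were 1 against 2 at E18.5 in AKR/J and RD7 each, and the block changed no other count. The change in AKR/J had 1 against 0 with a pseudocount of 64, without dim probe sets, with the date as a random block, without the RD7 arrays and with a trend and robust variance prior. A pseudocount of 64 gave 1 against 2 for age in NOD.NON-H2-nb1, and leaving out dim probe sets 2 against 1 at E18.5 in NOD.NON-H2-nb1. Without the E18.5 arrays high in muscle genes, an alternative chosen after seeing the data, as was its use for the lists and the RMA values, the counts were 1 against 2 for age in NOD.NON-H2-nb1 and CAST/EiJ each, 0 against 1 for age in RD7 and 0 against 2 at E18.5 in RD7, where 1 array was left, and the AKR/J comparisons could not be made. The cause of these shifts was not tested, beyond the fewer probe sets or arrays that some settings hold.

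Leaving out each array in turn gave 0 to 1 for age in RD7, AKR/J and NOD.NON-H2-nb1, 1 to 2 in CAST/EiJ and 1 to 2 in C57BL6/J. At E18.5 it gave 1 to 2 in AKR/J, 0 to 2 in RD7, 2 to 2 in CAST/EiJ and 0 to 1 for NOD.NON-H2-nb1, and at P30.5 0 to 1 in AKR/J and 0 to 0 in the other 3 strains. For the change with age it gave 0 to 1 in AKR/J, 2 to 2 in CAST/EiJ and 0 to 0 in NOD.NON-H2-nb1 and RD7. At E18.5 Csf1r no longer passed in AKR/J without AKR/J replicate 2 (log2 1.49, adjusted p = 0.0979), in NOD.NON-H2-nb1 without its replicate 3 (1.32, adjusted p = 0.0754) and in RD7 without its replicate 3 (1.40, adjusted p = 0.13) or C57BL6/J replicate 2 (adjusted p = 0.0563). Slc11a1 no longer passed in AKR/J without its replicate 1 (1.07, adjusted p = 0.265) or C57BL6/J replicate 3 (1.29, adjusted p = 0.0740), and in RD7 without each of the 6 arrays but RD7 replicate 1 (adjusted p 0.0506 to 0.192). For age, Csf1r no longer passed in CAST/EiJ without P30.5 replicate 1 or 2 or E18.5 replicate 1 or 2 (log2 -0.81, -1.01, -0.75 and -0.96, adjusted p 0.0634 to 0.1698), nor Cd68 in NOD.NON-H2-nb1 without P30.5 replicate 2 or 3 or E18.5 replicate 1 or 2 (-0.89, -0.61, -0.61 and -0.94, adjusted p 0.0740 to 0.235). Slc11a1 no longer passed for age in NOD.NON-H2-nb1 without P30.5 replicate 1, 2 or 3 or E18.5 replicate 3 (-1.02, -0.94, -0.98 and -0.76, adjusted p 0.0513 to 0.146), in RD7 without P30.5 replicate 1 or 3 or E18.5 replicate 2 or 3 (-0.88, -0.68, -0.98 and -0.77, adjusted p 0.0594 to 0.176) and in AKR/J without P30.5 replicate 2 or E18.5 replicate 1 (-1.08 and -0.99, adjusted p = 0.0533 and 0.156). For single genes, 159 of the values under other settings kept direction and call and 26 kept direction only, and with an array left out 76 and 29. No direction reversed. Arrays give no counting depth, so the number of pools limits the precision.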

Other observations

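RD7 retinas at P30.5 had 20 of the 22 other microglia and macrophage genes above C57BL6/J, with a median log2 difference of 0.61, but 0 of them passed in the MAS5 signals and 0 of 18 in the RMA values. Ctss averaged 2027 ± 287 in RD7 at P30.5 and 1432 ± 37.9 in C57BL6/J (SD, n = 3 each). Of 8 monocyte and neutrophil genes, all were above C57BL6/J at E18.5 in each of the 4 strains. Only 1, Plac8 in AKR/J, passed (3.02, adjusted p = 0.0284), where 7.55% of all probe sets did. With the arrays high in muscle genes left out, 8 of 8 were still above in CAST/EiJ, 6 in RD7 and 8 in NOD.NON-H2-nb1, where Ngp (1.91, adjusted p = 0.00810) and S100a8 (1.97, adjusted p = 0.0229) passed. In CAST/EiJ the differences of C1qb and Laptm5 also became less positive with age, by log2 -1.90 (adjusted p = 0.0106) and -1.79 (adjusted p = 0.0194). The pattern was another one, since both passed as lower at P30.5 and neither passed at E18.5. Csf1r and Slc11a1 passed as higher at E18.5 and did not pass at P30.5.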
